A study of Mus musculus with 6 samples.

Results

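The MHC class II presentation and costimulation genes were examined in mouse bone marrow mesenchymal stem cells (BMMSCs) after knockdown of Tet1 and Tet2. The 10 genes were chosen by symbol, and all 10 were found among the 36870 distinct symbols of the expression table. They are the chains of the surface class II molecules (H2-Aa, H2-Ab1, H2-Eb1), the peptide exchange chains (H2-DMa, H2-DMb1), the invariant chain Cd74, the class II transactivator Ciita, and the costimulatory molecules Cd80, Cd86 and Cd40. RNA-seq was performed on 6 libraries of C57BL/6 BMMSCs, the adherent cells grown out of flushed femurs and tibias. The control group (3 libraries) received a non-targeting siRNA according to the labels, whereas the RNA-seq methods call these cells vehicle-treated, and the siTet1/Tet2 group (3 libraries) received siRNAs against both genes. The labels give passage 2 for all cells and the methods passage 1, and no source says whether a replicate was a separate mouse or culture, so p-values measure only the spread between these libraries. Values are RPKM, in which read numbers are corrected for gene length and sequencing depth.

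Class II molecules carry peptides from ingested proteins to CD4+ T cells. An alpha and a beta chain assemble on the invariant chain, cathepsins trim that chain in the lysosome, and the DM heterodimer exchanges its last fragment for an antigen peptide. Transcription of the surface chains, of the invariant chain and of DM is driven by Ciita, which is recruited by RFX, NF-Y and CREB bound to a shared X and Y box arrangement upstream of these genes and is induced by interferon gamma, in part through Irf1. CD80 and CD86 are the ligands of CD28 and CTLA-4 on T cells, and CD40 receives the CD40 ligand. Dendritic cells, B cells and activated macrophages are the main carriers of this machinery. Mice of the C57BL/6 strain carry a non-functional E alpha gene, so the product of H2-Eb1 has no partner at the surface.

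The 5 H2 genes lie together on chromosome 17 of GRCm38, between 34119541 and 34316674. Ciita (chr16:10480059-10528418), Cd80 (chr16:38455561-38496335) and Cd86 (chr16:36603869-36666081) are on chromosome 16 and Cd40 (chr2:165055627-165072948) is on chromosome 2. H2-Eb1, H2-DMa and Ciita overlap annotated genes on the opposite strand, and whether reads were counted by strand is not given in the sources used here. H2-DMa also overlaps an annotated gene on the same strand, which counting by strand would not separate.

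The promoter windows below are shown because Ciita acts on class II genes through these elements, and H2-Aa and H2-Eb1, which both hold them, were the lowest members after Ciita. They are the 120 bases before the RefSeq start of each gene on GRCm38.p6, written along the strand of the gene. Capitals mark GNAAC, the core letters of an X box, and ATTGG, the reverse complement of the Y box core CCAAT, where they follow each other by 15 to 40 bases.
H2-Aa (chr17:34287824-34287943, minus strand): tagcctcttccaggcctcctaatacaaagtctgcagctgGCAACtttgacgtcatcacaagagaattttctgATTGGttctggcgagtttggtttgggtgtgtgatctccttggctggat
H2-Eb1 (chr17:34305747-34305866, plus strand): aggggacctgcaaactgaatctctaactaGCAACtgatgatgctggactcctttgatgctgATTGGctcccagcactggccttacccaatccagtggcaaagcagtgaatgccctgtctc
The bases between both elements numbered 28 in H2-Aa and 27 in H2-Eb1. H2-DMb1 held the arrangement as well, with GTAAC as the X box core and 28 bases between. Its window (chr17:34153071-34153190) is not printed because GENCODE starts the gene at 34153072. The arrangement on the strand of the gene was present in 679 of 32851 promoter windows of 300 bases, or 2.07%. Promoter entries matched 5 members, and the entries of H2-DMa and Cd80 did not hold it. H2-Ab1, Cd74, Ciita, Cd86 and Cd40 were not matched. The arrangement was written down after these sequences had been seen, and a match is a description of letters and not of a bound site.

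The targeted genes were checked first. Tet2 had 2.57, 4.08 and 3.71 RPKM in control cells and 0.358, 0.238 and 0.202 RPKM in siTet1/Tet2 cells. Tet1 had 0.032, 0.098 and 0.05 RPKM in control cells and 0.001, 0.01 and 0.001 RPKM in siTet1/Tet2 cells. The Tet1 groups did not overlap, but its level was too low for the gene to be tested. Depth was estimated from the steps between low RPKM values at 32400000 to 38600000 reads per library, and within a group, pairs of libraries had r values from 0.992 to 0.997 across genes, which are not independent replicates. Stromal markers were present in the control libraries, with Col1a1 at 488.4 ± 144.4 RPKM (SD, n = 3), whereas Thy1 and Lepr did not exceed 0.146 RPKM in any library. Macrophage markers were abundant in both groups. Their 12 genes summed to between 6123 and 8104 RPKM in the control libraries and between 13804 and 16926 RPKM in the siTet1/Tet2 libraries. Most of that rise was in Lyz2, the lysozyme gene, which had 4439 ± 783 RPKM in control cells and 11321 ± 1444 RPKM in siTet1/Tet2 cells, and the other 11 markers summed to between 2576 and 3091 RPKM and between 3962 and 4227 RPKM. Fcgr1, an Fc receptor gene, fell from 109.1 ± 10.0 to 27.8 ± 2.53 RPKM, and Ptprc, which encodes the blood cell surface protein CD45, was at 52.6 ± 4.57 and 53.0 ± 6.04 RPKM. The 11 stromal markers summed to between 1026 and 1472 RPKM in the control libraries and between 188.7 and 316.8 RPKM after knockdown. Among all genes tested, 29.8% were lower and 14.7% higher with an adjusted p under 0.05 from limma. Of the 9 stromal markers tested 7 were lower and 1, Vcam1, was higher (16.9 ± 0.775 and 55.9 ± 1.81 RPKM). Of the 12 macrophage markers 7 were higher and 2 lower. The part of these shifts in the results was not tested, and in RNA from a whole culture, fewer cells of a type and less RNA per cell cannot be told apart.

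Among the 10 genes, the costimulatory receptor Cd40 and the costimulatory ligand Cd80 were lower after knockdown, and no gene was called higher. H2-Ab1 and H2-Eb1 were lower by calls that depended on single libraries and on the scaling. The log2 of RPKM plus 1 was compared with limma in the 13266 genes that reached a mean of 0.1 RPKM, with Benjamini-Hochberg adjustment over all of them. Of the 9 members tested, 4 had an adjusted p under 0.05, all lower, and 6 had an unadjusted p under 0.05. Ciita was under the expression minimum. The share called, 44.4% of the members tested, was close to the 44.5% called among all genes tested, of which 29.8% were lower and 14.7% were higher. With a fold change over 2 on the log2 scale as well, 0 members passed, beside 6.58% of all genes tested (5.63% lower and 0.95% higher). The median difference of the 9 members was -0.20 and that of all genes tested -0.09 on the log2(RPKM + 1) scale.

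**Figure D1:**
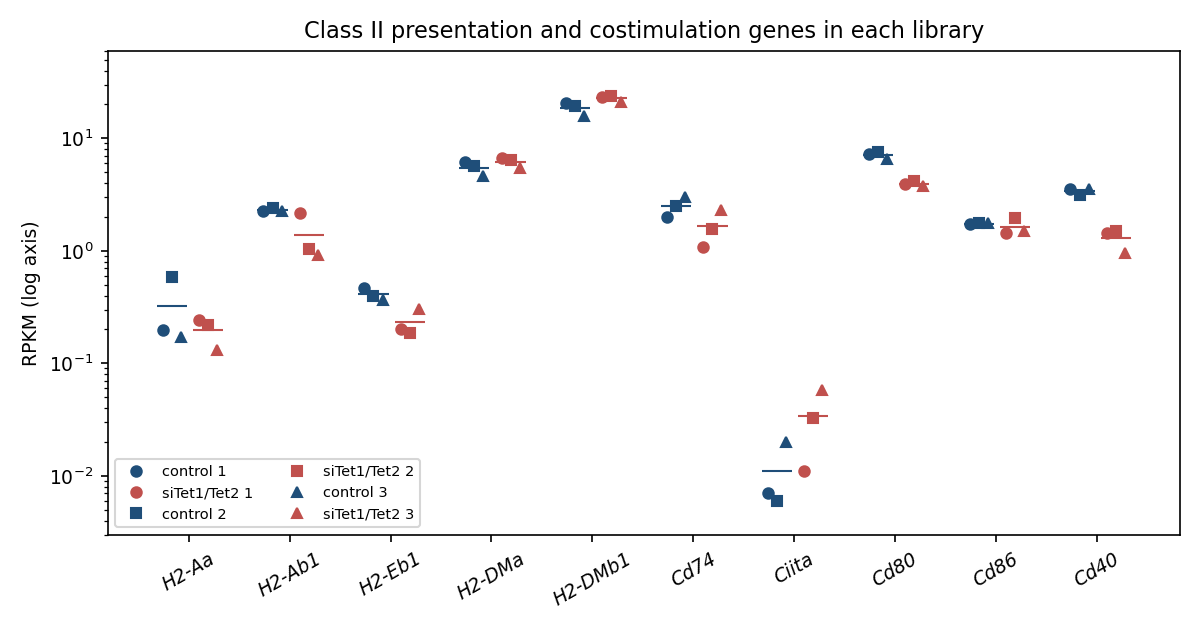
RPKM of the 10 genes in each library on a log axis, with control libraries in blue, siTet1/Tet2 libraries in red, marker shapes for replicates 1 to 3 and a line at each group mean. Ciita lies between 0.006 and 0.058 RPKM and H2-DMb1 between 15.7 and 24.0 RPKM. The groups are separate for H2-Ab1, H2-Eb1, H2-DMb1, Cd80 and Cd40.

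Cd40, a receptor of the TNF receptor superfamily that activates NF-kB, showed the largest difference of the members. Control cells had 3.57, 3.14 and 3.51 RPKM and siTet1/Tet2 cells 1.45, 1.51 and 0.961 RPKM. Every siTet1/Tet2 library was below every control library. The mean fell from 3.41 ± 0.234 to 1.31 ± 0.302 RPKM (SD, n = 3), so that it was 2.60-fold higher in the control libraries, and the log2 difference was -0.94 (standard error 0.11, limma adjusted p = 0.000302). The log2(RPKM + 1) scale understates the change of a gene at this level, and with a pseudocount of 0.1 Cd40 passed the fold change of 2 as well, with a log2 difference of -1.34.

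Cd80, the B7-1 ligand of CD28 and CTLA-4, was the most abundant costimulatory member in the control libraries. It had 7.19, 7.59 and 6.58 RPKM in control cells and 3.93, 4.14 and 3.78 RPKM in siTet1/Tet2 cells. The groups were separate, and within the siTet1/Tet2 group the spread was small. The mean fell from 7.12 ± 0.509 to 3.95 ± 0.181 RPKM (SD, n = 3), with a log2 difference of -0.71 (standard error 0.09, adjusted p = 0.000314 from limma). Both Cd80 and Cd40 stayed lower, with an adjusted p under 0.05, in all 17 alternative analyses. Among these was a fit scaled to the median log2(RPKM + 1) of the macrophage markers in each library. In that fit the log2 differences were -0.64 for Cd80 and -0.88 for Cd40, smaller than in the main fit. The median did not rise with the sum of the markers, so this scaling does not correct for that rise.

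Cd86, the B7-2 ligand of the same T cell receptors, had 1.72, 1.75 and 1.77 RPKM in control cells. In siTet1/Tet2 cells it had 1.45, 1.95 and 1.51 RPKM, values that lay on both sides of the control values. The log2 difference was -0.06, with a 95% interval from -0.28 to 0.15 (adjusted p = 0.606 from limma). The ratio of Cd80 to Cd86, which does not depend on the scaling of a library, was between 3.72 and 4.34 in the control libraries and between 2.12 and 2.71 in the siTet1/Tet2 libraries. The ratio was lower in 3 of 3 siTet1/Tet2 libraries than in any control library, an exact two-sided permutation p of 0.1, which is the smallest that 3 libraries against 3 can give. This ratio was chosen after the values had been seen.

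**Figure D2:**
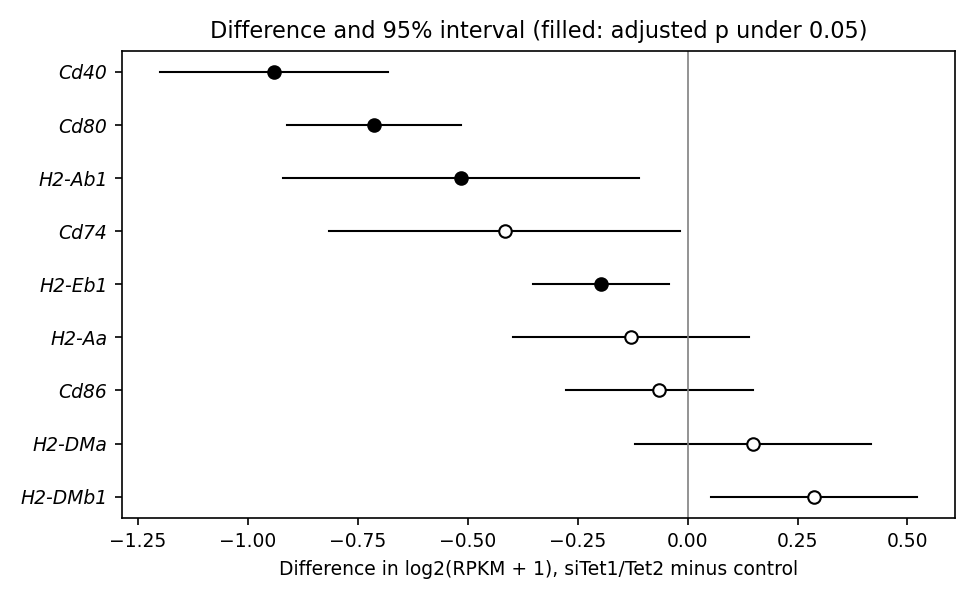
Difference in log2(RPKM + 1) between the siTet1/Tet2 and control groups for the 9 members tested, with 95% intervals from limma. Filled points have an adjusted p under 0.05. Cd40 (-0.94) and Cd80 (-0.71) lie farthest from 0, and the intervals of H2-DMa, Cd86 and H2-Aa include 0.

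The class II chains were at low levels in both groups. H2-Ab1, the beta chain of the I-A molecule, had 2.28, 2.42 and 2.24 RPKM in control cells and 2.17, 1.04 and 0.921 RPKM in siTet1/Tet2 cells. The library siTet1/Tet2 1 was close to the control values, and the other two siTet1/Tet2 libraries were well below them. The log2 difference was -0.52 (standard error 0.18, adjusted p = 0.0431 from limma). Without siTet1/Tet2 replicate 1 it was -0.74 with an adjusted p of 0.000928, the lowest of the 17 alternatives, whose highest adjusted p was 0.248. The call was lost without control replicate 1 (adjusted p = 0.0809), 2 (0.113) or 3 (0.0638) and without siTet1/Tet2 replicate 2 (0.145) or 3 (0.119). It was also lost with median ratio scaling (adjusted p = 0.0770) and relative to the macrophage markers (adjusted p = 0.0753).

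H2-Aa, the alpha chain that pairs with H2-Ab1, had 0.199, 0.590 and 0.173 RPKM in control cells and 0.243, 0.217 and 0.132 RPKM in siTet1/Tet2 cells. These values correspond to about 15 to 63 reads per library with the longest annotated transcript. Control 2 was far above the other control libraries, and the remaining values of both groups overlapped. The log2 difference was -0.13 (adjusted p = 0.402 from limma) and turned to 0.013 without control replicate 2 (adjusted p = 0.913).

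H2-Eb1, the E beta chain, had 0.463, 0.396 and 0.369 RPKM in control cells and 0.202, 0.186 and 0.304 RPKM in siTet1/Tet2 cells, or about 12 to 29 reads per library. All 3 siTet1/Tet2 values were below the control values. The log2 difference was -0.20 (standard error 0.07, adjusted p = 0.0436 from limma), and as a ratio of the mean RPKM the control level was 1.77-fold higher. The call was lost without control replicate 1 (adjusted p = 0.117) or 2 (0.0913) and without siTet1/Tet2 replicate 1 (0.128) or 2 (0.141). With the replicate numbers as a block it was lost as well (adjusted p = 0.0607), and after quantile normalization the log2 difference was -0.06 (adjusted p = 0.482). The call was also lost with median ratio scaling (0.0647), relative to the macrophage markers (0.0601), without a trend (0.0533) and with a pseudocount of 0.01 (0.0572).

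Cd74, the invariant chain on which class II dimers are assembled, had 2.01, 2.51 and 2.98 RPKM in control cells. In siTet1/Tet2 cells it had 1.08, 1.57 and 2.31 RPKM, so that siTet1/Tet2 3 fell within the range of the control libraries. The log2 difference was -0.42, with a 95% interval from -0.82 to -0.02 (adjusted p = 0.0846 from limma). Each siTet1/Tet2 library was lower than the control library of the same number, and with the replicate numbers as a block the adjusted p was 0.00608 from limma. No label states that the numbers pair the libraries, so this fit does not replace the main one. Single libraries moved the value in both directions. Without siTet1/Tet2 replicate 3 the log2 difference was -0.59 (adjusted p = 0.0154), and without siTet1/Tet2 replicate 1 it was -0.25 (adjusted p = 0.257). With quantile normalization it was -0.19 (adjusted p = 0.321).

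The peptide exchange genes did not pass the test. H2-DMb1, the DM beta chain, had 20.6, 19.4 and 15.7 RPKM in control cells and 23.1, 24.0 and 21.2 RPKM in siTet1/Tet2 cells. The groups did not overlap, the log2 difference was 0.29 (standard error 0.10), and the adjusted p of 0.0502 from limma narrowly missed the threshold. It passed in 7 of 17 alternatives, among them the replicate block (adjusted p = 0.0107), median ratio scaling (0.0201), and the fits without control replicate 1 (0.0272) and without siTet1/Tet2 replicate 3 (0.0493). Without control replicate 3 the log2 difference was 0.18 (adjusted p = 0.0754), and the highest adjusted p of the alternatives was 0.158, without siTet1/Tet2 replicate 2. H2-DMb2, a close paralog that also encodes a DM beta chain, had 3.46, 3.82 and 3.76 RPKM in control cells and 4.32, 4.17 and 4.66 RPKM in siTet1/Tet2 cells (adjusted p = 0.0861 from limma). The handling of reads that match both paralogs is not given, so the share of each is uncertain. H2-DMa, the DM alpha chain, had 6.21, 5.67 and 4.61 RPKM in control cells and 6.63, 6.42 and 5.49 RPKM in siTet1/Tet2 cells, which overlapped (log2 difference 0.15, 95% interval from -0.12 to 0.42, adjusted p = 0.331 from limma). Without control replicate 3 its log2 difference was 0.047 (adjusted p = 0.735).

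Of the 9 members tested, 4 were separate and lower and 1, H2-DMb1, separate and higher, which is 55.6%, and the groups did not overlap in 55.7% of all genes tested (35.9% lower and 19.8% higher). H2-DMb1 exceeded H2-Ab1 by a factor of 7.02 to 9.04 in the control libraries and of 10.6 to 23.1 in the siTet1/Tet2 libraries (exact two-sided permutation p = 0.1). This pair was also chosen after the values had been seen, and 7 ratios between genes were computed in all.

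Ciita, the transactivator of the class II genes, was close to the detection limit. Control cells had 0.007, 0.006 and 0.02 RPKM, which is about 2, 1 and 4 reads, and siTet1/Tet2 cells 0.011, 0.033 and 0.058 RPKM, or about 3, 8 and 12 reads. The groups overlapped, and a difference was not detectable at this depth. When genes were tested without a filter on low values the adjusted p was 0.273.

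By mean RPKM, which compares genes per length, the order in the control libraries was H2-DMb1, Cd80, H2-DMa, Cd40, Cd74, H2-Ab1, Cd86, H2-Eb1, H2-Aa and Ciita. The control ranges of Cd74 and H2-Ab1 overlapped, as did those of H2-Eb1 and H2-Aa, and other neighbours were separate. In the siTet1/Tet2 libraries the order was H2-DMb1, H2-DMa, Cd80, Cd74, Cd86, H2-Ab1, Cd40, H2-Eb1, H2-Aa and Ciita, and the ranges of Cd74, Cd86, H2-Ab1 and Cd40 overlapped, as did those of H2-Eb1 and H2-Aa. H2-DMb1 had a higher mean than 71.9% of the genes tested, Cd74 than 24.0%, H2-Ab1 than 22.7% and H2-Aa than 6.32%.

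The levels were set beside markers of the cells that carry class II molecules. H2-Ab1 stood at between 0.00711 and 0.00803 of the level of Emr1, a defining surface marker of macrophages, in the control libraries and at between 0.00267 and 0.00641 in the siTet1/Tet2 libraries. Of the 9 dendritic cell markers, 3 reached the expression minimum, and Ccr7 was listed at the lowest value of 0.001 in every library. The 9 markers summed to between 10.5 and 11.8 RPKM in the control libraries and between 11.97 and 13.6 RPKM in the siTet1/Tet2 libraries, mostly through Itgax, an integrin that macrophages also carry, which rose from 7.51 ± 0.993 to 9.57 ± 0.566 RPKM (adjusted p = 0.0351 from limma). Its call was lost without control replicate 1 (adjusted p = 0.0952) or 3 (0.0507) and without siTet1/Tet2 replicate 1 (0.0650), 2 (0.0833) or 3 (0.0955). It was also lost with rescaling to the same sum (0.111) and with no filter on low values (0.0597). Flt3, the receptor of a dendritic cell growth factor, did not exceed 0.030 RPKM.

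B cell markers summed to between 0.406 and 0.963 RPKM in the control libraries and between 0.967 and 1.335 RPKM in the siTet1/Tet2 libraries. Only Cd79b of the 5 genes was tested, and it rose from 0.533 ± 0.317 to 1.14 ± 0.189 RPKM (adjusted p = 0.0217 from limma). That call was lost without control replicate 2 (adjusted p = 0.0743) and without siTet1/Tet2 replicate 2 (0.0711) or 3 (0.0590). Of the 7 T cell genes, Cd4 and Cd28 were tested and rose, to 8.06 ± 0.573 and 17.9 ± 0.605 RPKM, whereas Cd3g and Ctla4 were listed at 0.001 RPKM in every library. Of the 6 neutrophil genes, S100a8 rose and Camp fell, and S100a9 was listed at 0.001 RPKM throughout.

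**Figure D3:**
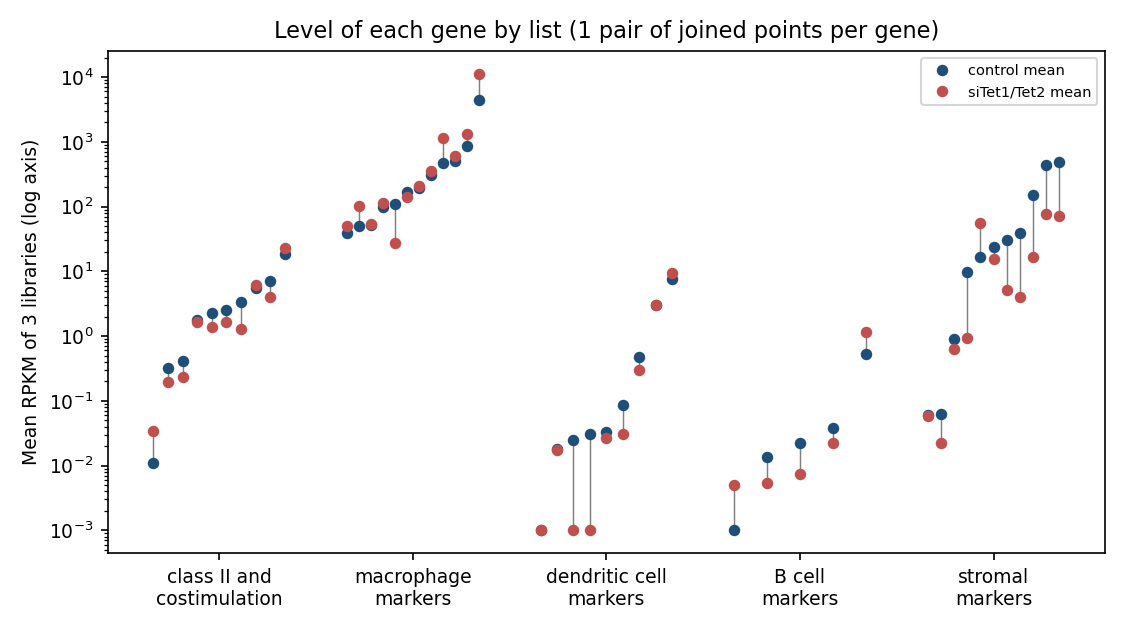
Mean RPKM of 3 libraries for each gene of 5 lists on a log axis, with the control mean in blue and the siTet1/Tet2 mean in red joined for each gene. The class II and costimulation genes lie between 0.011 and 22.8 RPKM and the macrophage markers between 27.8 and 11321 RPKM.

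The other genes of the pathway were examined with 6 lists, which were drawn up with earlier results of these data known. Of the 57 genes found, 47 were tested, and 11 of them were lower and 7 higher. These are 23.4% and 14.9% of those tested, beside 29.8% and 14.7% of all genes tested. The other class II genes were nearly silent apart from H2-DMb2. H2-Oa and H2-Ob, whose product inhibits DM, did not exceed 0.074 and 0.131 RPKM, and H2-Eb2 and the E alpha pseudogene H2-Ea-ps reached at most 0.009 and 0.023 RPKM.

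Factors that bind the X and Y boxes were expressed in both groups. The RFX subunits Rfx5, Rfxap and Rfxank had 2.80 ± 0.132, 7.28 ± 1.54 and 11.6 ± 1.66 RPKM in control cells and 2.63 ± 0.319, 6.98 ± 0.194 and 11.7 ± 0.766 RPKM in siTet1/Tet2 cells (adjusted p of 0.573, 0.848 and 0.927 from limma). Of the 7 factors tested, 1 rose and 1 fell, beside 14.7% higher and 29.8% lower among all genes tested. Nfya, the DNA-binding subunit of NF-Y, rose from 35.1 ± 0.318 to 57.2 ± 2.12 RPKM (SD, n = 3, adjusted p = 4.29e-05 from limma). Its partner Nfyb fell from 7.08 ± 1.02 to 5.18 ± 0.0741 RPKM (adjusted p = 0.0192 from limma). The call of Nfyb was lost without control replicate 1 (adjusted p = 0.0516) or 2 (0.0762) and without siTet1/Tet2 replicate 1 (0.0528) or 2 (0.0589). It was also lost with median ratio scaling (-0.30, adjusted p = 0.0509) and with quantile normalization (-0.22, adjusted p = 0.136), against a log2 difference of -0.38.

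Enzymes that process antigen and the invariant chain were among the abundant transcripts. Ctss, the cathepsin that completes the trimming of the invariant chain in antigen-presenting cells, had 2051 ± 165 RPKM in control cells and 2084 ± 151 RPKM after knockdown (adjusted p = 0.886 from limma). Of the 8 genes tested 3 rose and 5 did not pass the test, and 14.7% of all genes tested were higher. The lysosomal thiol reductase Ifi30 rose from 136.4 ± 13.2 to 167.7 ± 10.1 RPKM (SD, n = 3, adjusted p = 0.0222 from limma). The aspartic protease Ctsd rose from 8406 ± 812 to 13346 ± 1040 RPKM (adjusted p = 0.0254) and the cysteine protease Ctsb from 3250 ± 218 to 4493 ± 288 RPKM (adjusted p = 0.0234), in the same fit. The calls of all 3 genes were lost without siTet1/Tet2 replicate 1 (adjusted p of 0.0810 for Ifi30, 0.0856 for Ctsd and 0.0872 for Ctsb) and without siTet1/Tet2 replicate 2 (0.0867, 0.111 and 0.102). Those of Ctsd (0.107) and Ctsb (0.0852) were also lost without control replicate 2. With no filter on low values Ctsd (0.356) and Ctsb (0.188) were lost, Ctsd was lost relative to the macrophage markers (0.0596), and with quantile normalization the log2 difference of Ctsb was 0.065 (0.417) and that of Ctsd 0.

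Other ligands that costimulate or restrain T cells moved in both directions, with 5 of 12 tested genes lower and 3 higher. Among all genes tested, 29.8% were lower and 14.7% higher. Lgals9, the galectin that binds Tim-3, fell from 173.1 ± 18.8 to 71.3 ± 3.14 RPKM (SD, n = 3, adjusted p = 1.93e-05 from limma). Tnfsf9, the ligand of 4-1BB, fell from 3.51 ± 0.338 to 1.11 ± 0.361 RPKM (adjusted p = 0.000336 from limma). Cd83, a surface protein that slows the removal of class II molecules and CD86 from dendritic cells, rose from 5.02 ± 0.161 to 8.74 ± 0.890 RPKM (adjusted p = 0.000507 from limma), and Cd276, also called B7-H3, rose from 4.79 ± 0.651 to 7.20 ± 0.468 RPKM (adjusted p = 0.00528 from limma). These 4 genes passed the test with the same sign in all 17 alternatives. Cd274, which encodes PD-L1, had 17.1 ± 1.30 RPKM in control cells and 14.8 ± 1.17 RPKM after knockdown (adjusted p = 0.0928 from limma).

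Downstream of Cd40, 1 of 11 tested signalling genes passed the test, beside 44.5% of all genes tested. Traf3, an adaptor that restrains the alternative NF-kB route, fell from 5.88 ± 0.554 to 4.30 ± 0.584 RPKM (adjusted p = 0.0219 from limma). Its call was lost without control replicate 3 (adjusted p = 0.0515) and without siTet1/Tet2 replicate 1 (0.0815) or 2 (0.0817), and with quantile normalization the log2 difference was -0.23 instead of -0.38 (0.0617). The gene of the ligand, Cd40lg, was listed at 0.001 RPKM in every library.

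In the interferon gamma route that induces Ciita, 4 of 8 tested genes were lower, beside 29.8% of all genes tested. No test of the list was run. Irf1, an interferon-induced transcription factor that activates the Ciita promoter, fell from 36.5 ± 1.67 to 18.3 ± 1.04 RPKM (adjusted p = 2.23e-05 from limma). It stayed lower, with an adjusted p under 0.05, in all 17 alternatives. Ifng itself was listed at 0.001 RPKM in 5 libraries and at 0.043 RPKM in siTet1/Tet2 1. The median difference of the 8 genes was -0.41, beside -0.09 for all genes tested.

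**Figure D4:**
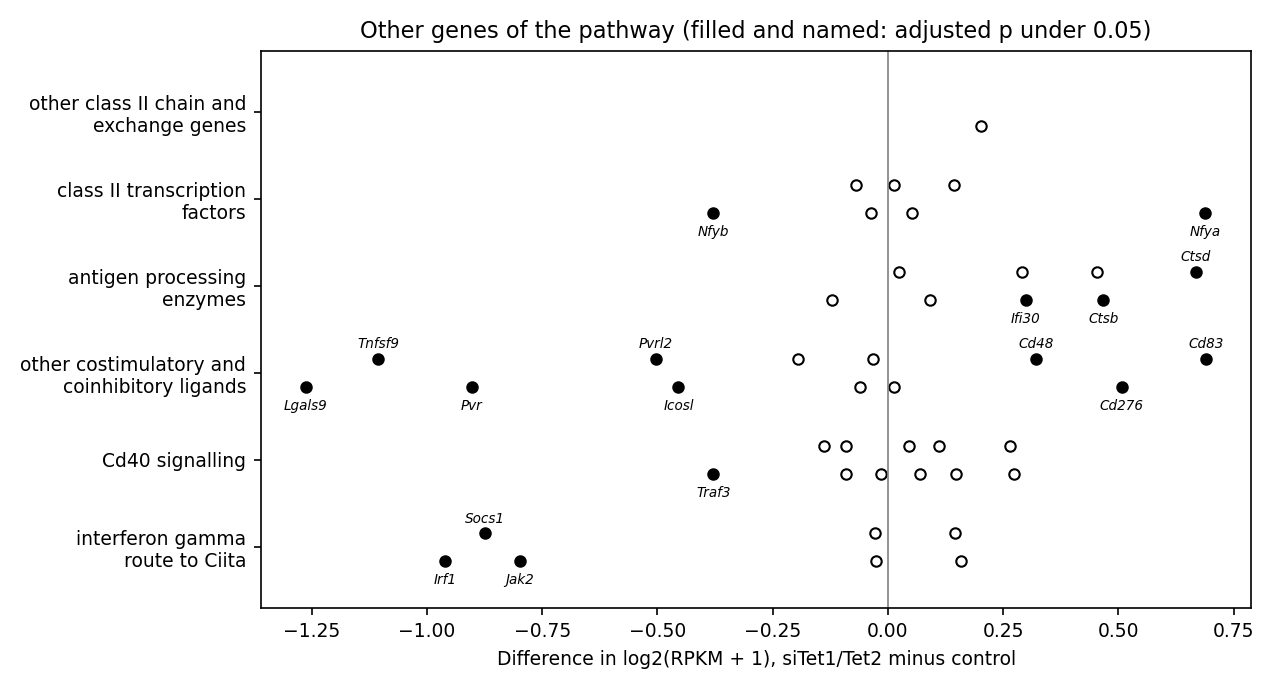
Difference in log2(RPKM + 1), siTet1/Tet2 minus control, for 46 of the 47 tested genes of 6 pathway lists, 1 point per gene, with filled and named points for an adjusted p under 0.05. Lgals9 (-1.26) and Tnfsf9 (-1.11) lie farthest to the left, and Nfya and Cd83 (both 0.69) farthest to the right.

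The profiles of 2 members whose groups overlapped were set beside those of the genes that reached a mean of 1 RPKM. Likeness was measured as the root mean square difference over the 6 libraries between log2(RPKM + 1) values centred on the mean of each gene. Among the 5 genes closest to Cd74 were Sugp2, Vezf1 and Cyp4f17, with differences from 0.0798 to 0.0854. Those closest to Cd86 were Dhx35, Tmem110, Adra1a, Tmem186 and 8430419L09Rik, with differences from 0.0289 to 0.0402.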

How the data were processed

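Total RNA of 6 BMMSC libraries was sequenced as paired ends. The authors assembled the reads to GRCm38 and deposited RPKM per gene in 1 table for all libraries (called FPKM in their methods). Whether multi-mapped reads were split is not given in the sources used here. Their column of p-values, 1 comparison column, was not used.

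The RPKM values were tested as log2(RPKM + 1) with limma 3.58.1 in R 4.3.3 (moderated test with a mean-variance trend, no covariate), two-sided, with Benjamini-Hochberg adjustment over the 13266 genes that reached a mean of 0.1 RPKM. Tables were made with Python 3.11.15 and pandas 2.3.3. On simulated data for this comparison with 13266 genes, 192 of 200 changed genes were recovered and 13 of 13066 unchanged genes were called. In the measured data 5905 genes were called, many more than the 200 changed there. Recovery at the levels and differences of the members was not tested. Of 36915 rows, 18360 were at the lowest listed value of 0.001 RPKM in every library. Depth was estimated from the steps between low values of genes with a single annotated transcript, of which 50.1 to 54.9% lay within 0.1 of a whole read. By chance 20% is expected at a fixed depth. The depth was chosen to give the largest share, so 20% is not the chance level for that share, and read numbers are approximate. Symbols that are only a number (27) were not analysed here.

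The members and lists were chosen with earlier results of these data known. From each pathway list, the text names up to 2 of the largest decreases and 2 of the largest increases that passed, and Rfx5, Rfxap, Rfxank, Ctss, Ifi30 and Cd274 in any case. Some genes that this rule or the likeness measure names are not reported here. From marker lists it names the most abundant genes and those at the lowest value. Other genes near the lowest value, H2-DMb2, and the markers Emr1, Fcgr1, Ptprc and Vcam1, which this rule does not cover, were named after their values had been seen. Gene positions are from GENCODE M21 and promoters from RefSeq, both on GRCm38.

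Deviations from the group means of libraries with the same replicate number correlated with r of 0.149, 0.117 and 0.462. Control 1 correlated more with siTet1/Tet2 2 (0.332), and control 2 more with siTet1/Tet2 1 (0.205). The numbers were treated as pairs in an alternative fit, although no label states a shared source and the correlations of controls 1 and 2 do not favour this pairing. The other alternatives were pseudocounts of 0.1 and 0.01, no filter or a minimum of 1 RPKM, rescaling to the same sum, median ratio scaling, quantile normalization, scaling to the macrophage markers, no trend, summing rows with the same symbol, and leaving out each library. Scaling to the macrophage markers used the median of their log2(RPKM + 1) values in each library, not their sum.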

Additional observations from a re-analysis of the deposited data

How the results depend on the processing

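Both Cd80 and Cd40 stayed lower, with an adjusted p under 0.05, in all 17 alternatives, with log2 differences from -0.85 to -0.55 and from -1.40 to -0.72. H2-Ab1 kept its call in 7 of 17 and H2-Eb1 in 6 of 16, and the set of members called was the same in 3 of 17. Against 4 members called, all lower, 2 were called with a pseudocount of 0.01, both lower, and 2 were called lower with median ratio scaling, quantile normalization and scaling to the macrophage markers. Against 0 called higher, 1 was called higher in those 3 scalings, with a minimum of 1 RPKM and with the replicate block. Against 0 members past a fold of 2, 1 passed with a pseudocount of 0.1 or 0.01 and with rescaling to the same sum. Leaving out a library gave 2 to 5 members called, 2 to 4 lower, 0 to 1 higher and 0 to 1 past a fold of 2, 4 to 9 other pathway genes higher and 9 to 11 lower, and 4420 to 6150 genes called in all (3014 to 4134 lower and 1406 to 2016 higher). The 7 other pathway genes called higher became 13 with median ratio scaling, 15 with quantile normalization and 11 with scaling to the macrophage markers. With quantile normalization 2627 genes were called lower and 3607 higher, against 3952 and 1953, and the median of all genes moved from -0.09 to 0.06. The share of calls that were lower was 66.9%, and 74.2%, 53.5%, 55.8% and 42.1% with rescaling to the same sum, median ratio scaling, scaling to the macrophage markers and quantile normalization. The sign turned in Cd86 with quantile normalization (0.17) and in H2-Aa without control replicate 2 (0.013, with a range from -0.21 to 0.013 over the libraries left out), neither past the threshold. Among the RFX subunits and Ctss, none of which passed the test, it turned with quantile normalization in Rfx5 (0.15) and Rfxap (0.13), with median ratio scaling in Rfx5 (0.0014) and Rfxap (0.051), relative to the macrophage markers in Rfxap (0.042), and with rescaling to the same sum in Ctss (-0.040) and Rfxank (-0.046). It also turned when single libraries were left out, with ranges from -0.045 to 0.082 in Ctss, from -0.088 to 0.10 in Rfxank and from -0.19 to 0.083 in Rfxap. With quantile normalization Ctss passed the test (0.17, adjusted p = 0.0154 from limma) and Ctsd, among the highest ranks of every library, had a difference of 0. With the replicate numbers as a block (pairing), H2-Eb1 was lost (adjusted p = 0.0607) and H2-DMb1 (0.0107) and Cd74 (0.00608) were gained, and it changed no other member's call. The cause of these changes was not tested. The low reads of H2-Aa, H2-Eb1 and Ciita limit what can be detected.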
